A study of Mus musculus with 12 samples.

Results

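The genes described here are 8 genes of MHC class II antigen presentation in mouse liver: H2-Aa, H2-Ab1, H2-Eb1, H2-DMa, H2-DMb1, Cd74, Ciita and Ctss. They were listed by name for their place in the pathway, with earlier results of these data known. All 8 were found by symbol in a table of 23849 gene symbols. Cd74 was found in an entry that names both Cd74 and Mir5107, a microRNA, so its value covers both symbols. Liver RNA was sequenced from 12 mice in 4 groups of 3: vehicle at ZT0, Policaptil Gel Retard at ZT0, vehicle at ZT12 and Policaptil Gel Retard at ZT12. Zeitgeber time (ZT) counts the hours from lights on. All 12 mice were males of the C57BL/6J background. Their age is given as 8 weeks, without saying whether this was at the start of the diet or at harvest. All were fed a high-fat diet (HFD), for 4 weeks before the treatment and throughout it, so no liver of lean mice is part of these comparisons. The tested product, called Libramed in the sample labels, is a gel-forming fiber blend that was given by gavage for 2 weeks, and vehicle mice were given drinking water. Gavage was done once a day, shortly before lights off, so time of day and time since the last dose cannot be told apart.

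MHC class II molecules are pairs of an alpha and a beta chain that display peptides from internalized proteins to CD4+ T cells. New pairs are held by the invariant chain CD74, which fills the peptide groove and guides them to endosomes, where cathepsins, cathepsin S among them, trim it to a short remnant that H2-DM exchanges for peptides. In liver these genes are used mostly by Kupffer cells, dendritic cells, B cells and, to a lower degree, sinusoidal endothelial cells, and hepatocytes hold little of them. Mice of the C57BL/6 background make the I-A pair, encoded by H2-Aa and H2-Ab1, but no functional I-E alpha chain, so the beta chain of H2-Eb1 lacks its usual partner.

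The genes of the chains and of H2-DM lie close together in the MHC of chromosome 17, and all 8 are protein coding in GENCODE vM21, whose build is mm10. On chromosome 17, H2-DMa (ENSMUSG00000037649.10) spans 34119541 to 34139101 and H2-DMb1 (ENSMUSG00000079547.4) spans 34153072 to 34160230. H2-Ab1 (ENSMUSG00000073421.6) spans 34257689 to 34269419, H2-Aa (ENSMUSG00000036594.15) spans 34282744 to 34287823 on the minus strand, and H2-Eb1 (ENSMUSG00000060586.11) spans 34305867 to 34316674. Outside this cluster, Ctss (ENSMUSG00000038642.10) lies on chromosome 3 from 95526786 to 95556403 and Ciita (ENSMUSG00000022504.10) on chromosome 16 from 10480059 to 10528418.

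Promoters of class II genes are known for a shared X and Y box layout that is bound by RFX and NF-Y factors and read by the coactivator CIITA. RefSeq promoter windows (GRCm38.p6, 250 bases before to 50 after the start) were matched for 5 of the 8 genes, H2-Aa, H2-Eb1, H2-DMa, H2-DMb1 and Ctss. The windows were searched on both strands for an X core, GNAAC, followed after 20 to 35 bases on the same strand by a Y core, ATTGG. This pair was found in the windows of H2-Aa, H2-Eb1 and H2-DMb1, and it is held by 878 of all 32851 promoter windows (2.67%). The Y core alone is common, with 37.4% of all windows. The stretches that hold the pair are shown because the pair is what these 3 promoters share, with the X core and the Y core in capitals. The first lies at chr17:34287824-34287973 on the minus strand and the next at chr17:34305717-34305866 on the plus strand, and each is the 150 bases before the RefSeq start. For H2-DMb1, whose GENCODE transcript begins before the RefSeq start, only the 20 bases around the X core are shown (chr17:34153094-34153113, plus strand).
H2-Aa: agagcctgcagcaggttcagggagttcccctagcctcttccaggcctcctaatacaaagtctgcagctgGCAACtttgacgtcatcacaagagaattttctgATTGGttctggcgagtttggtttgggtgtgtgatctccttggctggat
H2-Eb1: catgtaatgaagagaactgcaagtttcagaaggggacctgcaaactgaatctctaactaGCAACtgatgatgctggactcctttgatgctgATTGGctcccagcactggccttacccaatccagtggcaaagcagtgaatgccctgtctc
H2-DMb1: ctaGTAACtgatgatgctag

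The 2 cores are 28 bases apart in H2-Aa, 27 in H2-Eb1 and 28 in H2-DMb1. The X core begins 81 bases before the RefSeq start in H2-Aa, 91 in H2-Eb1 and 94 in H2-DMb1. By GENCODE, whose H2-DMb1 gene starts at 34153072, the cores of H2-DMb1 lie after the start and not before it. The longest run of letters common to the H2-Eb1 and H2-DMb1 stretches was the 13 bases aactgatgatgct, which overlap the end of the X core and occur in 3 of all promoter windows. H2-Aa shared at most 8 bases in a row with either of them, around the Y core. No pair was found in the windows of H2-DMa and Ctss, which says only that these letters are not in those windows. A match of letters is a description and not a measured binding site.

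**Figure D1:**
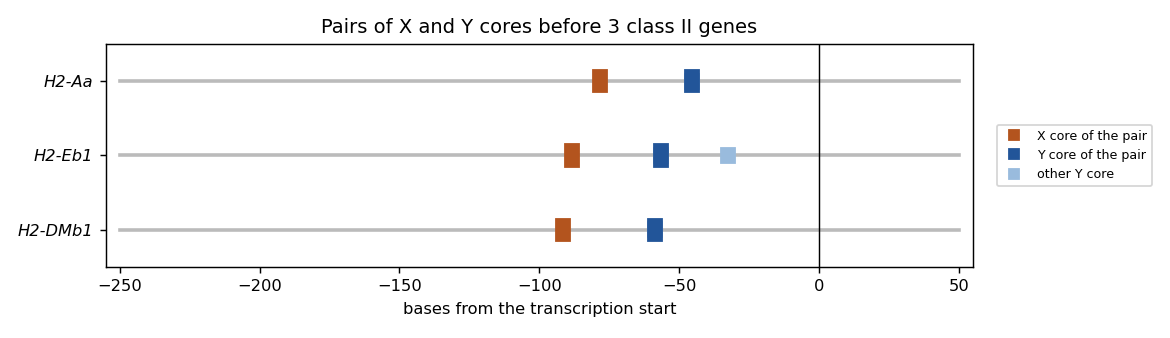
X core (orange) and Y core (dark blue) of the pair in the RefSeq promoter windows of H2-Aa, H2-Eb1 and H2-DMb1, with another Y core on the opposite strand of H2-Eb1 in light blue. The horizontal axis is the distance in bases from the RefSeq transcription start, at 0, and the X cores begin 81, 91 and 94 bases before it.

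Values are FPKM, fragments scaled by transcript length and by the mapped reads of the library, so that levels can be compared between genes per length. The sum of all FPKM in a library was 634683 to 759355, and 14581 to 15264 genes had a value above 0. The absolute depth and the counting error of low genes are unknown, since no read totals were used. Relative to vehicle ZT0 replicate 1, the depth read from the spacing of the lowest values was lowest in Policaptil ZT12 replicate 2, at 0.712, and highest in vehicle ZT12 replicate 2, at 1.27. The clock genes matched the time labels, with 7 of 7 evening genes higher at ZT12 in both treatments (p under 0.05, limma). Albumin is listed at 0 in all 12 livers, whereas other hepatocyte genes were high.

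The 8 genes covered a wide range of levels, and their order was Cd74, the 2 I-A chains, Ctss and H2-Eb1, the DM chains and Ciita. Cd74, the invariant chain, averaged 30.3 FPKM over the 12 livers and lay above both I-A chains in each of them. H2-Ab1 averaged 14.9 FPKM and H2-Aa 14.7 FPKM, and the ratio of H2-Ab1 to H2-Aa within a liver stayed between 0.921 and 1.24, so these neighbours in the order did not differ beyond their spread. The next neighbours, Ctss with 6.84 FPKM and H2-Eb1 with 6.76 FPKM, also overlapped. H2-DMa averaged 1.19 FPKM and H2-DMb1 0.947 FPKM, with a ratio of H2-DMb1 to H2-DMa between 0.404 and 1.87. Ciita, the transactivator, averaged 0.105 FPKM. A mean of at least 1 FPKM was required for a test, and 6 of the 8 genes passed, whereas H2-DMb1 and Ciita did not and are given without a call.

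H2-Aa, the I-A alpha chain, measured 24.9, 10.8 and 18.3 FPKM in the vehicle livers at ZT0 and 14.6, 9.19 and 9.97 FPKM at ZT12. With Policaptil Gel Retard it measured 14.8, 13.7 and 12.2 FPKM at ZT0 and 15.4, 17.9 and 14.9 FPKM at ZT12. The vehicle ZT0 livers spanned nearly the whole range, and at ZT12 all 3 treated livers lay above all 3 vehicle livers. H2-Ab1, the I-A beta chain, measured 26.2, 10.2 and 18.3 FPKM in vehicle livers at ZT0 and 13.4, 10.2 and 11.2 FPKM at ZT12. In treated livers it measured 14.4, 13.2 and 15.2 FPKM at ZT0 and 15.7, 16.5 and 13.9 FPKM at ZT12. The picture was that of H2-Aa, with the highest value in vehicle ZT0 replicate 1 and no overlap of the ZT12 groups. H2-Eb1, the I-E beta chain, measured 10.4, 4.40 and 7.60 FPKM in vehicle livers at ZT0 and 6.31, 5.09 and 5.44 FPKM at ZT12. In treated livers it measured 5.06, 7.01 and 6.39 FPKM at ZT0 and 8.24, 7.64 and 7.53 FPKM at ZT12. Its highest and lowest livers were both vehicle livers of ZT0, and its treated ZT12 livers were above the vehicle ZT12 livers and above the treated ZT0 livers without overlap.

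Cd74 measured 52.0, 25.8 and 37.6 FPKM in vehicle livers at ZT0 and 27.3, 20.3 and 23.2 FPKM at ZT12. In treated livers it measured 28.9, 26.9 and 32.8 FPKM at ZT0 and 33.8, 30.1 and 24.7 FPKM at ZT12. Vehicle ZT0 replicate 1 was again the highest liver, and the ZT12 groups overlapped. Ctss, the lysosomal protease cathepsin S, measured 9.79, 7.95 and 8.57 FPKM in vehicle livers at ZT0 and 8.69, 5.90 and 3.66 FPKM at ZT12. In treated livers it measured 5.82, 7.08 and 5.65 FPKM at ZT0 and 6.35, 6.76 and 5.82 FPKM at ZT12. The 3 vehicle livers of ZT0 were close together for this gene and lay above all treated livers of ZT0, whereas the vehicle livers of ZT12 were spread widely.

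H2-DMa, the alpha chain of the peptide editor H2-DM, measured 2.35, 0.992 and 1.27 FPKM in vehicle livers at ZT0 and 1.09, 0.987 and 1.23 FPKM at ZT12. In treated livers it measured 0.566, 1.05 and 1.18 FPKM at ZT0 and 1.12, 1.43 and 1.01 FPKM at ZT12. All groups overlapped. H2-DMb1, the beta chain, measured 1.78, 0.669 and 1.16 FPKM in vehicle livers at ZT0, 0.855, 0.808 and 0.497 FPKM at ZT12, 1.06, 1.12 and 0.847 FPKM in treated livers at ZT0, and 0.845, 0.863 and 0.854 FPKM at ZT12. The closeness of its treated ZT12 livers was not seen in the other groups, and its values are uncertain because H2-DMb2 is a near-identical neighbour. Ciita measured 0.0606, 0.120 and 0.162 FPKM in vehicle livers at ZT0, 0.0857, 0.0715 and 0.0197 FPKM at ZT12, 0.0777, 0.136 and 0.149 FPKM in treated livers at ZT0, and 0.108, 0.149 and 0.121 FPKM at ZT12. Every liver had a value above 0, and the treated ZT12 livers lay above the vehicle ZT12 livers without overlap.

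**Figure D2:**
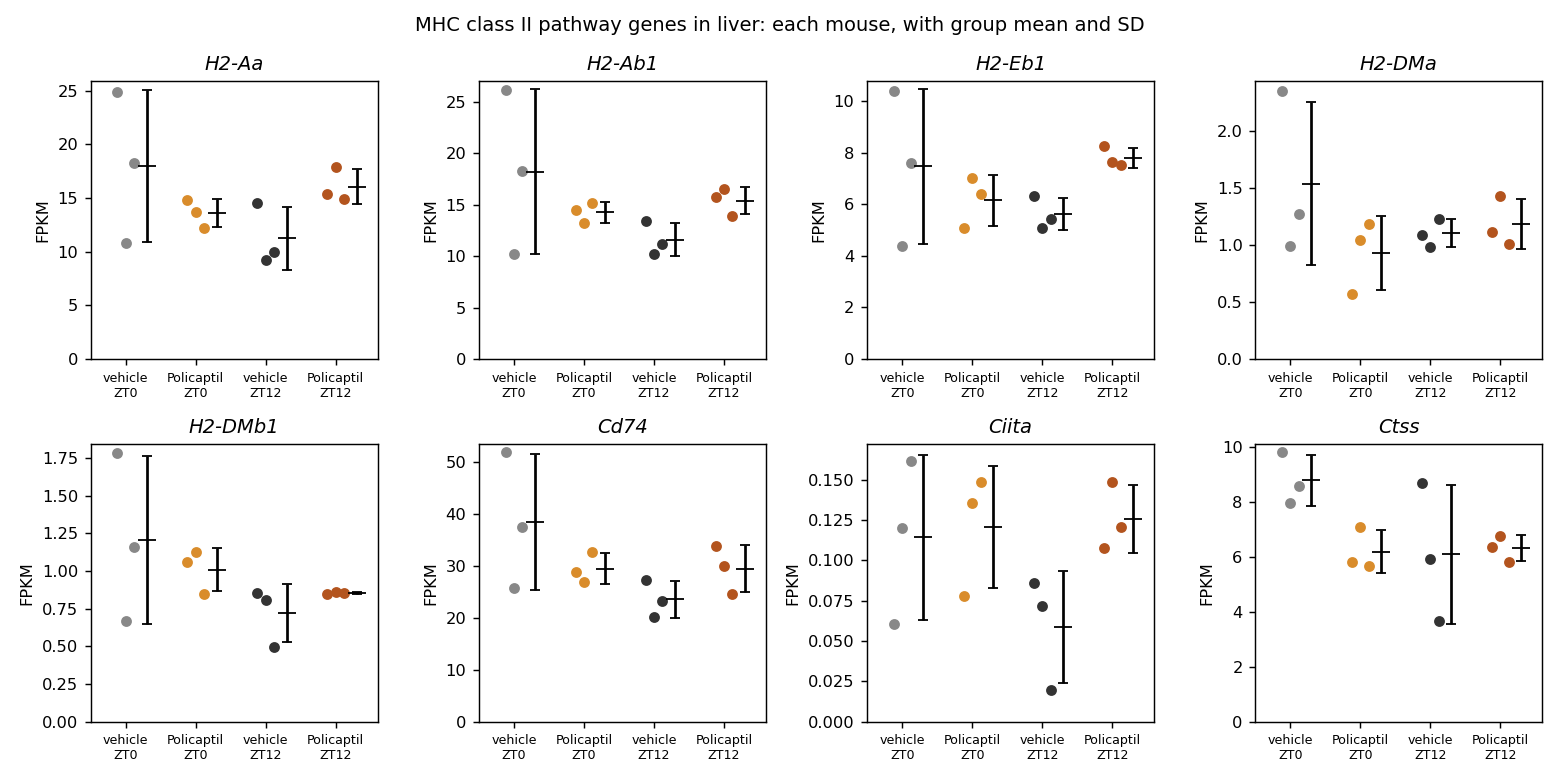
FPKM of the 8 class II genes in each of 12 livers (points), by treatment and time, with the group mean and SD (n = 3) beside the points and each vertical axis starting at 0. The vehicle ZT0 livers have the largest SD for all genes but Ctss, and the H2-Aa, H2-Ab1, H2-Eb1 and Ciita points of treated livers at ZT12 lie above those of vehicle livers at ZT12.

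Vehicle ZT0 replicate 1 had the highest value of the 12 livers for 7 of the 8 genes, all but Ciita, and vehicle ZT0 replicate 2 the lowest for H2-Ab1 and H2-Eb1. The coefficient of variation in vehicle ZT0 livers was 34.1% for Cd74 and 46.6% for H2-DMa, with H2-Aa, H2-Ab1, H2-Eb1, H2-DMb1 and Ciita between them, but 10.7% for Ctss. In treated livers it was 9.72% at ZT0 and 9.98% at ZT12 for H2-Aa, and 7.09% and 8.50% for H2-Ab1. Results that rest on vehicle ZT0 livers are therefore given with and without these 2 libraries.

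The treatment was compared at ZT12, the time of lights off. The I-A and I-E chain genes were higher with the tested product, by 1.46-fold for H2-Aa, 1.33-fold for H2-Ab1 and 1.40-fold for H2-Eb1 in the ratio of geometric means, and in each of them the groups did not overlap. H2-Aa was 16.1 ± 1.60 FPKM in treated and 11.2 ± 2.90 FPKM in vehicle livers (SD, n = 3), a log2(FPKM + 1) difference of 0.50 ± 0.17 (SE). Its Benjamini-Hochberg adjusted p over all 9806 genes tested was 0.729 (limma). H2-Ab1 was 15.4 ± 1.31 against 11.6 ± 1.63 FPKM (SD, n = 3), a log2 difference of 0.38 ± 0.11 (SE). H2-Eb1 was 7.80 ± 0.385 against 5.61 ± 0.629 FPKM (SD, n = 3), a log2 difference of 0.42 ± 0.09 (SE). The adjusted p of both was also 0.729 (limma, Benjamini-Hochberg). These 3 of the 6 tested genes had p under 0.05, against 3.07% of all tested genes with p under 0.05 in this direction, and their groups did not overlap, against 5.88% of all tested genes in this direction. The 3 genes belong to 1 pathway and were measured in the same livers, so their calls are not separate evidence. With adjustment over all genes 0 of the 6 passed (0% of all tested genes), against 3 at an unadjusted p under 0.05 (limma). The exact permutation test of 3 mice against 3 cannot give a two-sided p below 0.1, which was its value for each of the 3 genes.

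The other tested genes were also higher at ZT12 with the tested product but not past the threshold. Cd74 differed by 0.31 (95% interval −0.03 to 0.66 on the log2 scale), with 29.5 ± 4.59 against 23.6 ± 3.53 FPKM (SD, n = 3). H2-DMa differed by 0.05 (−0.19 to 0.29) and Ctss by 0.11 (−0.47 to 0.69). The median log2 difference of the 6 genes was 0.35, against −0.01 over all genes tested. Ciita, below the minimum for a test, was 0.126 ± 0.0209 FPKM in treated and 0.0589 ± 0.0347 FPKM in vehicle livers (SD, n = 3), a ratio of geometric means of 2.52, at levels where the counting error is unknown. H2-DMb1 was 0.854 ± 0.00927 against 0.720 ± 0.194 FPKM (SD, n = 3).

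The calls of H2-Ab1 and H2-Eb1 at ZT12 held with each of the 6 livers left out in turn. H2-Aa was no longer called without vehicle ZT12 replicate 2 (0.38 on the log2 scale), vehicle ZT12 replicate 3 (0.44) or Policaptil ZT12 replicate 2 (0.43). In a fit over all 12 livers, which takes 1 estimate of the spread from all 4 groups, 0 of the 6 genes were called by limma, with adjusted p of 0.817 for H2-Aa, 0.836 for H2-Ab1 and 0.824 for H2-Eb1.

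RNA of whole liver does not tell fewer cells of a type from less RNA per cell, so summed levels of cell markers are given beside these genes. At ZT12 the sum over 11 Kupffer cell and macrophage markers was 46.0 to 70.8 FPKM in treated and 36.5 to 97.1 FPKM in vehicle livers. The sum over 10 dendritic cell markers was 2.56 to 3.15 against 1.88 to 2.65 FPKM, with 0 of the 10 above the minimum for a test, and that over 7 B cell markers was 1.31 to 4.46 against 2.07 to 2.86 FPKM. The sum over 7 sinusoidal endothelial markers was 31.1 to 33.3 against 18.3 to 33.1 FPKM, and that over 7 monocyte and neutrophil markers 8.32 to 30.8 against 7.60 to 16.0 FPKM. These 5 sums overlapped between the groups, as did those of stellate cell and blood markers. The other 2 of the 9 sums did not overlap at ZT12 and were on the upper side in treated livers, as the chain genes were. The sum over 8 T cell markers was 2.15 to 2.61 against 1.46 to 2.02 FPKM. Its 1 tested gene, Cd4, the coreceptor of T cells that see class II, was higher by 0.305 on the log2 scale with p under 0.05 (limma). Cd4 was the largest part of this sum, with means of 1.44 against 0.968 FPKM. The other T cell markers were below the minimum for a test and went both ways. By group means Cd3e, Cd3d, Cd3g and Lck were higher in treated livers, and Cd2 (0.0679 against 0.182 FPKM), Cd8a and Cd28 were lower. The sum over 8 hepatocyte markers was 35055 to 42469 against 30622 to 34379 FPKM, with 3 of its 7 tested genes higher and 0 lower at p under 0.05 (limma). Apoa1 made up most of this sum, with means of 25316 against 21726 FPKM, and Alb added 0. Some markers of other antigen-presenting cells were near 0 over the 12 livers. Means were 0.0442 FPKM for Flt3, 0.0806 FPKM for Xcr1 and 0.125 FPKM for Itgax of dendritic cells. Ms4a1 of B cells averaged 0.0546 FPKM and was listed at 0 in 5 livers. Other markers of these lists were higher, with 0.833 FPKM for Zbtb46, 0.514 FPKM for Batf3 and 0.457 FPKM for Clec9a of dendritic cells. Of the B cell list, Cd79b averaged 0.452 FPKM and Blnk 1.27 FPKM. The part of these cells in the class II difference was not tested.

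**Figure D3:**
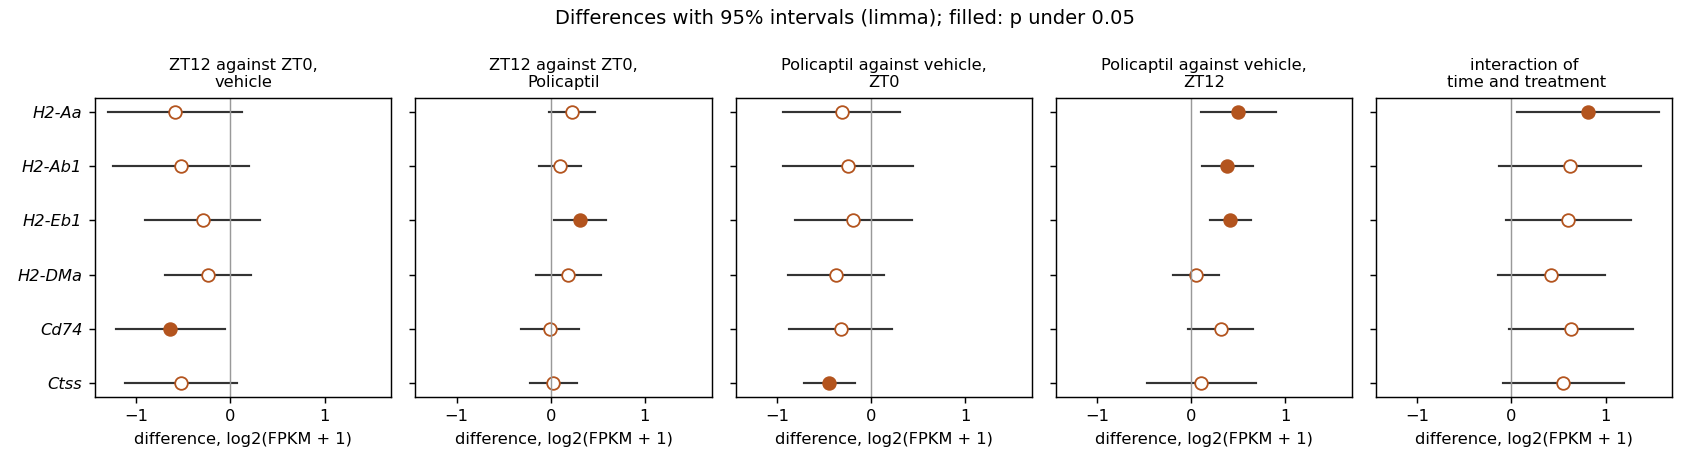
Differences in log2(FPKM + 1) of the 6 tested class II genes in 5 comparisons (points, with 95% limma intervals), filled where p was under 0.05 and with a vertical line at 0. All 6 points lie right of 0 for Policaptil against vehicle at ZT12 and for the interaction, and left of 0 for Policaptil against vehicle at ZT0 and for ZT12 against ZT0 with vehicle.

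At ZT0, the time of lights on, the tested genes were on the other side, lower with the tested product for all 6, with a median log2 difference of −0.32 against −0.02 over all genes. Ctss was the gene that passed, with 6.18 ± 0.781 FPKM in treated and 8.77 ± 0.936 FPKM in vehicle livers (SD, n = 3). It fell by 0.45 ± 0.12 (SE) on the log2 scale (limma, Benjamini-Hochberg adjusted p = 0.436), and the groups did not overlap (exact permutation p = 0.1, the smallest possible). This is 1 gene of 6, where 5.81% of all tested genes were lower with p under 0.05 and 9.94% were lower without overlap. After adjustment 0 of the 6 passed (limma, 0% of all tested genes). Ctss kept its call with each of the 6 livers left out, and lost it in the limma fit over 12 livers (adjusted p = 0.451).

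The remaining genes differed at ZT0 by less than the spread of the vehicle livers. The differences were −0.31 for H2-Aa (95% interval −0.94 to 0.31), −0.24 for H2-Ab1, −0.19 for H2-Eb1, −0.37 for H2-DMa and −0.32 for Cd74 (log2 scale). These values turned on a single vehicle liver. Without vehicle ZT0 replicate 2 all 6 genes were called lower, H2-Aa by −0.62, H2-Ab1 by −0.59 and Cd74 by −0.57, whereas without vehicle ZT0 replicate 1 H2-Ab1 was at 0.05, H2-Eb1 at 0.06 and H2-Aa at −0.05, and Ctss alone was called. Markers of macrophages were lower in the same group as Ctss. The summed Kupffer cell markers were 42.5 to 67.7 FPKM in treated and 73.2 to 84.9 FPKM in vehicle livers at ZT0. All 8 tested markers of this list were lower and 5 had p under 0.05 (limma), with a median of −0.48. The sums of T cell markers (1.99 to 2.95 against 1.63 to 1.97 FPKM), B cell markers (3.21 to 3.39 against 0.783 to 2.37 FPKM) and hepatocyte markers (36903 to 45774 against 31630 to 35648 FPKM) also did not overlap at ZT0 but were on the upper side in treated livers. Apoa1 made up most of the hepatocyte sum at ZT0, with means of 29394 against 22771 FPKM. Of the 7 tested hepatocyte markers 4 were higher and 3 lower, with 1 in each direction at p under 0.05 (limma). The part of all these markers in the Ctss difference was not tested.

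The times of day were then compared within each treatment. In vehicle livers all 6 tested genes were lower at ZT12, with a median log2 difference of −0.52 against 0.01 over all genes, and Cd74 passed the threshold. Cd74 fell from 38.5 ± 13.1 to 23.6 ± 3.53 FPKM (SD, n = 3), by 0.64 ± 0.24 (SE) on the log2 scale (limma, Benjamini-Hochberg adjusted p = 0.147), and its groups overlapped (exact permutation p = 0.2). That is 1 gene of 6, where 13% of all tested genes were lower with p under 0.05 and 10.4% passed the adjustment in either direction. The other differences were −0.59 for H2-Aa (95% interval −1.30 to 0.12), −0.52 for H2-Ab1, −0.30 for H2-Eb1, −0.24 for H2-DMa and −0.52 for Ctss (−1.12 to 0.07). Without vehicle ZT0 replicate 1, replicate 3, vehicle ZT12 replicate 2 or replicate 3, 0 of the 6 were called, and without vehicle ZT0 replicate 2 there were 4. Without vehicle ZT0 replicate 1 the Cd74 difference was −0.40. In the limma fit over all 12 livers 3 were called, Cd74, H2-Aa (adjusted p = 0.127) and Ctss (adjusted p = 0.111). Markers of some cell types were on the same side. All 8 tested Kupffer cell and macrophage markers were lower at ZT12 in vehicle livers, with a median of −0.36 and 0 of them at p under 0.05 (limma), and all 6 tested endothelial markers were lower, with a median of −0.46 and 4 at p under 0.05. Their part in the class II difference was not tested.

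In treated livers the chain genes were on the upper side at ZT12. H2-Eb1 rose from 6.15 ± 0.995 to 7.80 ± 0.385 FPKM (SD, n = 3), by 0.31 ± 0.12 (SE) on the log2 scale, without overlap (limma, Benjamini-Hochberg adjusted p = 0.132). H2-Aa differed by 0.23 (95% interval −0.02 to 0.47), also without overlap. The count of 1 gene in 6 stands beside 15.7% of all tested genes that were higher with p under 0.05, and the count of 2 without overlap beside 19% in this direction. After adjustment 0 of the 6 passed (limma), beside 12.4% of all tested genes. H2-Ab1 differed by 0.10, H2-DMa by 0.19, Ctss by 0.03 and Cd74 by −0.005, none of them past the threshold. The call of H2-Eb1 held without Policaptil ZT0 replicate 2 (0.39 on the log2 scale) and was lost without any other of the 6 livers, where it lay between 0.19 and 0.34. It was also lost in the limma fit over 12 livers (adjusted p = 0.378).

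Whether the time difference itself differed between treatments was tested by the interaction of time and treatment in 12 livers. All 6 tested genes had a positive interaction, that is, a more positive ZT12 to ZT0 difference with the tested product, with a median of 0.61 against 0.005 over all genes. H2-Aa passed the threshold with 0.81 ± 0.34 (SE, log2 scale, limma, Benjamini-Hochberg adjusted p = 0.725). The others were 0.62 for H2-Ab1 (95% interval −0.13 to 1.38), 0.60 for H2-Eb1 (−0.06 to 1.27), 0.63 for Cd74 (−0.02 to 1.29), 0.55 for Ctss (−0.09 to 1.19) and 0.42 for H2-DMa (−0.15 to 0.99). This is 1 gene of 6, with 3.82% of all tested genes in this direction at p under 0.05, and 0 of 6 after adjustment (limma, 0% of all tested genes). The interaction is built from the same 4 group means as the comparisons above, so the signs are not separate evidence. All 8 tested Kupffer cell and macrophage markers also had a positive interaction, with a median of 0.34 and 0 at p under 0.05 (limma), and so did 5 of 6 endothelial markers, with a median of 0.10, and their part was not tested. Without vehicle ZT0 replicate 1 H2-Aa was at 0.55 and 0 genes were called, and without vehicle ZT0 replicate 2 it was at 1.12 and 5 were called.

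Averaged over both times, the treatment left the 6 genes near 0, with 3 on either side and a median of 0.03 on the log2 scale. In this fit 0 of the 6 had p under 0.05 (limma), where 10.1% of all tested genes did and 0.0204% passed the adjustment. The exact permutation p within times was 0.69 for H2-Aa, 0.755 for H2-Ab1, 0.565 for H2-Eb1, 0.38 for H2-DMa, 0.985 for Cd74 and 0.385 for Ctss (two-sided). The widest interval was that of H2-Aa, −0.34 to 0.53, and differences within it cannot be told from 0 in 12 livers. Averaged over both treatments, ZT12 differed from ZT0 with p under 0.05 in 0 of the 6 genes (limma), beside 41% of all tested genes with p under 0.05 and 29.7% that passed the adjustment. Cd74 was the nearest, at −0.32 (exact permutation p = 0.145), and the median of the 6 was −0.20.

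By group means, the order of the I-A chains was vehicle ZT0, Policaptil ZT12, Policaptil ZT0 and vehicle ZT12, from the highest to the lowest. For H2-Aa the group means were 18.0, 16.1, 13.6 and 11.2 FPKM in this order, and the pair of treated groups was the only pair of neighbours whose livers did not overlap. For H2-Ab1 they were 18.2, 15.4, 14.3 and 11.6 FPKM, and all neighbours overlapped. For H2-Eb1 the treated ZT12 livers came first, with 7.80 against 7.46 FPKM in vehicle ZT0 livers, but the latter ranged from 4.40 to 10.4 FPKM. For Cd74 the treated groups were level, with 29.5 FPKM each.

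Some pairs of genes varied together between livers of the same group, and most of the 28 pairs of the 8 genes did not pass a test of this. With the group means removed, H2-Ab1 and Cd74 had a Pearson r of 0.947 over the 12 livers (permutation within groups, p = 0.00209) and a Spearman rho of 0.916 (permutation p = 0.00205). Over the 28 pairs, the adjusted p was 0.0585 for r and 0.0326 for rho (Benjamini-Hochberg, permutation). Without the 2 livers farthest from the median, vehicle ZT0 replicates 1 and 2, r was 0.893. H2-Aa and H2-Ab1 had r = 0.924 (permutation p = 0.0154, adjusted 0.144) and 0.735 without these livers. For H2-Aa with H2-Eb1 r went from 0.820 to 0.270 without them, and for H2-Ab1 with H2-Eb1 from 0.896 to 0.311, so these relations rested on those 2 livers. Without them r also went from 0.820 to 0.004 for H2-Ab1 with H2-DMb1 and from 0.689 to −0.14 for Cd74 with H2-DMb1. H2-DMb1 and Ctss had r = 0.604 and rho = 0.888 (permutation p of rho = 0.00233, adjusted 0.0326), with r = 0.860 without 2 livers. The r of Ciita with the other 7 genes was between −0.247 and 0.370. The smallest p that these permutations can give is 0.000772, and 0 of the 28 pairs had an adjusted p of r under 0.05.

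Ratios within a liver were less spread for some pairs. The ratio of Cd74 to H2-Ab1 lay between 1.77 and 2.54, with a median of 2.04, although each of the genes varied 2.57-fold between the lowest and the highest liver. The ratio of H2-Eb1 to H2-Ab1 lay between 0.351 and 0.54. It was 0.415 ± 0.0173 in vehicle livers at ZT0 and 0.485 ± 0.0135 at ZT12 (SD, n = 3), which did not overlap, and 0.435 ± 0.0915 and 0.509 ± 0.0403 in treated livers, which did. The ratio of H2-Ab1 to H2-DMa was less steady, from 9.10 to 25.5, with the highest value in Policaptil ZT0 replicate 1, where H2-DMa was lowest.

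The mean log2 level of H2-Aa, H2-Ab1, H2-Eb1 and Cd74 was set against 9 lists of cell markers and the other 4 class II genes, with group means removed. Vehicle ZT0 replicates 1 and 2 deviated by 0.52 and −0.60 from their group mean. Of these 13 relations the largest r with a marker list was that of monocytes and neutrophils, 0.699 (permutation p = 0.0251, adjusted 0.326), with rho = 0.727 (permutation p = 0.0416, adjusted 0.488) and r = 0.750 without 2 livers. The r was 0.209 with Kupffer cell markers, 0.505 with B cell markers, −0.279 with dendritic cell markers and −0.088 with endothelial markers, none of them past the threshold. With the other class II genes r was 0.837 for H2-DMb1, 0.747 for H2-DMa, 0.4375 for Ctss and −0.203 for Ciita, also not past the threshold. With 2 livers left out these were 0.179, 0.314, 0.63 and 0.548. For H2-DMb1 and H2-DMa the livers left out were vehicle ZT0 replicates 1 and 2.

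**Figure D4:**
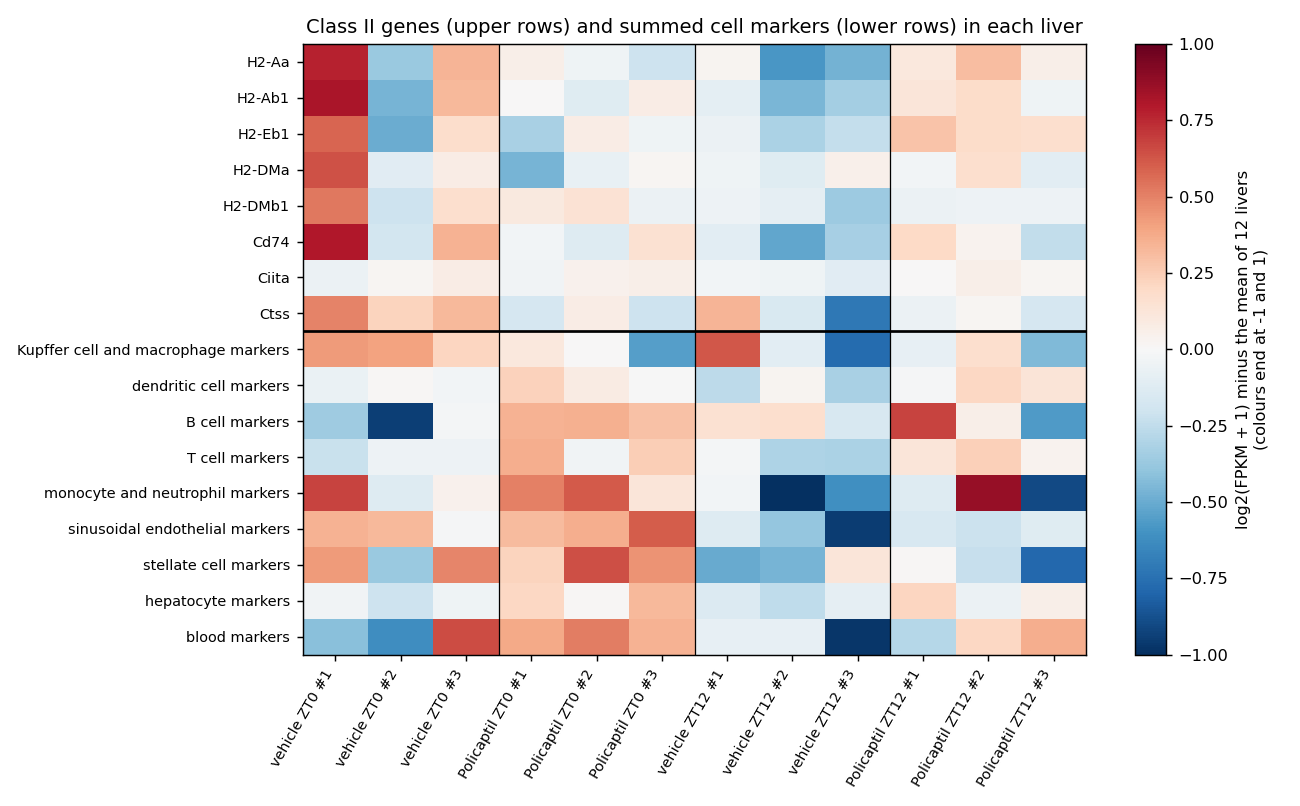
Log2(FPKM + 1) of the 8 class II genes (upper part) and of the summed markers of 9 cell types (lower part) in each liver, as the difference from the mean of 12 livers, with colours ending at −1 and 1. Vehicle ZT0 replicate 1 is red for 7 class II genes, and the Kupffer cell and macrophage sums are red in all 3 vehicle ZT0 livers.

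Of the 9800 other genes tested, those whose pattern between livers was most like that mean were Gstm4 (r = 0.957), Vamp3 (r = 0.952), Dazap2, Fahd2a, Sergef, Tmem86b, Gins1, Ccdc32 (r = 0.913), D330041H03Rik and Tgfbr3l, over 12 livers with group means removed. Without the farthest liver, vehicle ZT0 replicate 2, Vamp3 (r = 0.929) and Ccdc32 (r = 0.961) were the 2 that were still among the first 10. The likeness of the others rested in part on that liver.

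Other genes of class II presentation were followed from a list of 25, of which 16 passed the minimum level. The tested ones were the proteases and processing enzymes Ctsb, Ctsd, Ctsh, Ctsl, Ctsz, Lgmn and Ifi30, the protease inhibitor Cst3, the promoter-binding factors Rfx5, Rfxap, Rfxank, Creb1, Nfya, Nfyb and Nfyc, and the ubiquitin ligase March8. At ZT12, where the chain genes were higher with the tested product, 0 of these 16 had p under 0.05 (limma), with a median log2 difference of −0.04. At ZT0, Ctsz was higher by 0.28 with the tested product, and Rfxank (−0.36) and Nfya (−0.25) were lower, with p under 0.05 but limma adjusted p from 0.469 to 0.506. In vehicle livers at ZT12 against ZT0, March8 (0.37), Ifi30 (0.33) and Ctsz (0.26) were higher and Rfxank (−0.49), Ctsl (−0.41) and Rfx5 (−0.30) lower with p under 0.05 (limma). In treated livers Ifi30 (0.36), March8 (0.26) and Nfyc (0.24) were higher and Nfyb (−0.53) lower. Only Ctsz passed for the interaction (−0.43, limma adjusted p = 0.560), in the direction opposite to H2-Aa. Over both treatments, 3 were higher and 4 lower at ZT12, and 6 of these passed the adjustment. These shares of the 16 lie near the 41% and 29.7% of all tested genes.

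The rest of the list was low. H2-Oa averaged 0.218 FPKM, H2-DMb2 0.201 FPKM and H2-Ob 0.127 FPKM over the 12 livers, H2-O being an inhibitor of H2-DM that is known from B cells. The costimulatory ligands of antigen-presenting cells were low as well, with 0.233 FPKM for Cd86 and 0.0418 FPKM for Cd80, and Cd40, a receptor of these cells for T cell help, was at 0.104 FPKM. H2-Eb2 was listed at 0 in 8 livers, and H2-Ea-ps, the I-E alpha pseudogene, was listed at 0 in all 12.

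**Figure D5:**
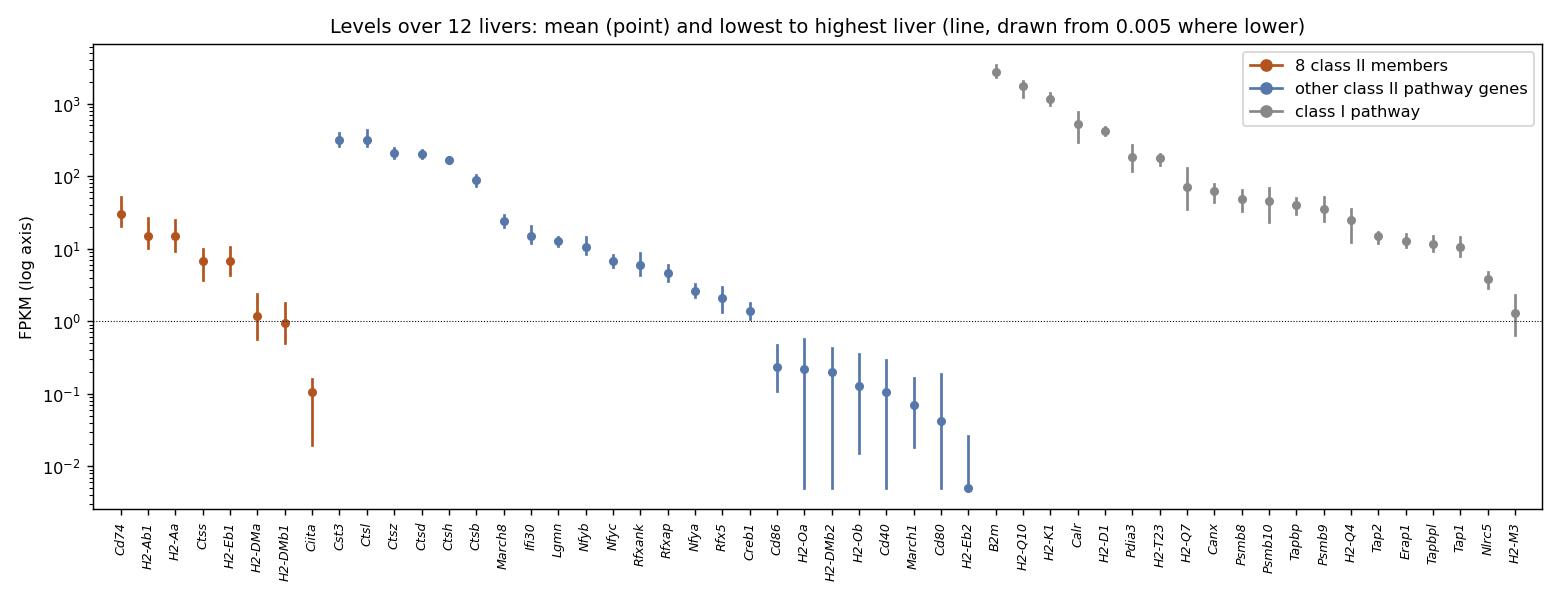
Mean FPKM over 12 livers (points) and the lowest to highest liver (lines) of the 8 class II genes, other class II genes and class I genes, on a log axis with a dotted line at 1 FPKM, the minimum for a test. Cd74 at 30.3 FPKM is the highest of the 8, below the other cathepsins than Ctss and most class I genes, and Ciita at 0.105 FPKM the lowest.

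Some genes of class I presentation, which nearly all cells use, stood at much higher levels, with means of 2698 FPKM for B2m, 1169 FPKM for H2-K1 and 415 FPKM for the H2-D1 entry. Others lay below Cd74 and the I-A chains, such as Erap1 with 12.9 FPKM and Nlrc5 with 3.86 FPKM. Of 20 class I genes tested, 7 were higher and 4 lower at ZT12 in vehicle livers (p under 0.05, limma), where 14.4% of all tested genes were higher and 13% lower. In treated livers 9 were higher and 3 lower, beside 15.7% and 13.4% of all tested genes. The immunoproteasome subunits Psmb8, Psmb9 and Psmb10 rose in both treatments, by 0.48, 0.48 and 0.65 in vehicle livers and by 0.65, 0.69 and 0.74 in treated livers. The chaperones Calr, Pdia3 and Canx fell in both, by 1.09, 0.87 and 0.40 in vehicle livers and by 1.08, 0.71 and 0.48 in treated livers. Nlrc5, the class I counterpart of Ciita, rose by 0.35 and 0.25, and Erap1, which trims peptides, by 0.37 and 0.29. For the treatment at ZT12, H2-K1 (0.20) and H2-Q7 (0.60) were higher with p under 0.05 (limma adjusted p = 0.729 for both), beside 3.07% of all tested genes, and 0 of the 20 passed at ZT0 (limma). Values of class I heavy chains are uncertain because their genes have near-identical copies.

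Ciita is known to be induced by interferon gamma. Ifng itself was listed at 0 in 9 livers, with a mean of 0.0257 FPKM. All vehicle livers were at 0, and treated livers averaged 0.0157 FPKM at ZT0 and 0.0871 FPKM at ZT12. Treated livers ranged from 0 to 0.0470 FPKM at ZT0, where the mean rests on the highest liver alone, and from 0 to 0.194 FPKM at ZT12. The counting error at such levels is unknown, so a difference between treatments cannot be read from these values. Of 16 tested genes of interferon gamma signalling, 2 were lower at ZT12 in treated than in vehicle livers with p under 0.05 and none were higher (limma), Gbp6 (−0.44) and Ifngr2 (−0.28), with a median of −0.12, where 3.67% of all tested genes were lower. At ZT0 1 was higher, Ifngr1 (0.24), and none lower, beside 3.42% of all tested genes that were higher. The transcription factor Irf1 fell at ZT12 in both treatments, by 0.86 in vehicle and 0.56 in treated livers, with p under 0.05 (limma). In vehicle livers Irgm1 also fell, by 0.34, and Iigp1, Gbp3 and Ifngr2 rose, by 0.49, 0.48 and 0.34 (limma p under 0.05), and of these 5 genes Irf1 passed the adjustment (limma adjusted p = 0.0188). In treated livers Gbp6 fell by 0.58, the 1 gene of the list that passed the adjustment there (limma adjusted p = 0.0447). For the interaction Gbp6 (−0.51) and Iigp1 (−0.51) were lower with p under 0.05 (limma), beside 2.8% of all tested genes, and none were higher.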

How the data were processed

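Total liver RNA of 12 mice was sequenced, 3 per group. The authors deposited their FPKM values in 1 table, with a column for each sample. Per the labels, TopHat and Cuffnorm were used with mm10 (GRCm38) and a TruSeq RNA v2 kit, whereas the methods describe stranded mRNA libraries, ELAND, uniquely matching single-end reads and RPKM. Which of these made the table could not be settled. Unique matching would make values of near-identical genes uncertain, and strand could not be taken as known. Columns were matched to samples by their names, and groups were taken from the labels.

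The table has 24138 lines. Repeated symbols (289 lines) were reduced to their line of highest mean, so that 23849 symbols remained. Values were analysed as log2(FPKM + 1), a scale that understates the change of low genes, for the 9806 genes whose mean was at least 1 FPKM. Groups were compared two-sided with limma 3.58.1 in R 4.3.3 (lmFit, eBayes with trend). Each pair of groups was fitted on its 6 samples, and the interaction and the averages over both times or treatments on all 12. A gene was called at p under 0.05, with Benjamini-Hochberg adjustment over all genes tested given beside it. Single genes were also tested by exact permutation, within times for the average over both, and correlations by 100000 permutations within groups. The comparisons share groups, so their results are not independent. The mice are separate animals per the labels' statement of biological replicates, and the calculations were tested on simulated data.

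The 8 genes and all lists were chosen with earlier results of these data known. The lists were other class II genes, class I presentation, interferon gamma signalling, markers of Kupffer cells and macrophages, dendritic cells, B cells, T cells, monocytes and neutrophils, sinusoidal endothelium, stellate cells, hepatocytes and blood, and evening and morning clock genes. Genes of the first 3 lists were named where p was under 0.05 in any comparison, at most 20 by smallest p, together with class II genes at a mean of at least 1 FPKM. Ifngr1, Ifngr2, Iigp1, Cd4, H2-Q7, H2-K1, H2-D1, B2m and the low class II genes were named in addition, after their values were seen. Individual cell markers named beside the sums, such as Apoa1, Zbtb46 and Cd2, were also chosen after their values were seen. The 10 genes most like the mean of H2-Aa, H2-Ab1, H2-Eb1 and Cd74 were named by Pearson r. The level of 1 list gene is not reported here.

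The depth is known only relative to vehicle ZT0 replicate 1, from genes with a mean under 0.1 FPKM. Its group medians were 1.05 for vehicle and 1.09 for Policaptil at ZT0, and 1.19 and 0.975 at ZT12. No counting error can be given, and 3 mice per group set the precision. The 2 most alike libraries of a group had r = 0.985, and no library was found to repeat another. Promoter letters were read from RefSeq (GRCm38.p6). The alternatives tried were 0.1 as pseudocount, no minimum FPKM, limma without trend, median-ratio scaling, quantile normalization, a fit over 12 samples, the replicate number as a block and each library left out.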

Additional observations from a re-analysis of the deposited data

Results flagged for a closer look

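The ZT12 to ZT0 difference of H2-Aa differed between treatments by the test of the difference itself. The interaction of time and treatment was 0.813 on the log2(FPKM + 1) scale, past a limma p of 0.05 before adjustment, with −0.59 in vehicle and 0.23 in treated livers. Its Benjamini-Hochberg adjusted p over all genes tested was 0.725 (limma), and over its 18 alternatives this adjusted p ranged from 0.571 to 0.921. The value lay between 0.55 and 1.12 with each of the 12 livers left out, and its p was under 0.05 in 4 of these 12 fits (limma).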

How the results depend on the processing

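Counts of called class II genes were small and moved with the fit. For ZT12 against ZT0 with vehicle, 1 was called, and 0 without a minimum FPKM, 3 in the fit over 12 samples and 0 to 4 with 1 library left out. With the tested product 1 was called, and 0 with median-ratio scaling or the fit over 12 samples and 0 to 1 with 1 library left out. For the treatment at ZT0, 1 was called, and 0 in the fit over 12 samples and 1 to 6 with 1 library left out. At ZT12, 3 were called, and 0 in the fit over 12 samples and 2 to 4 with 1 library left out. The interaction gave 1, and 0 to 5 with 1 library left out. The average over times gave 0, and 0 to 1 (Ctss, −0.32, without vehicle ZT12 replicate 3). The average over treatments gave 0, and 1 with quantile normalization (Cd74, −0.36) and 0 to 1 with 1 library left out.

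No pairing by replicate number was seen over all tested genes, with group means removed. Libraries of different groups with the same number had correlations of −0.279 to 0.341, and 4 of 18 were over 0.1. Those with other numbers had −0.410 to 0.361, and 14 of 36 were over 0.1. A pairing that acts on only some genes was not tested. With the replicate number as a block, 4 genes were called for ZT12 against ZT0 with vehicle, 0 with the tested product, 2 for the interaction (Cd74 in addition) and Cd74 in addition for the treatment at ZT12 (limma adjusted p = 0.738), and 3 of 12 samples correlated best with their own number.

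With all libraries, signs turned for 4 values near 0. Cd74 for the treatment over both times went from −0.005 to 0.016 with median-ratio scaling. Over both treatments, H2-Eb1 for time went from 0.0066 to −0.0053 with median-ratio scaling and −0.00030 with quantile normalization, and H2-DMa went from −0.025 to 0.0093 with quantile normalization. With 1 library left out, the ranges that crossed 0 were, for time with the tested product, −0.11 to 0.11 for Cd74 and −0.024 to 0.12 for Ctss. For the treatment at ZT0 they were −0.59 to 0.054 for H2-Ab1 and −0.48 to 0.061 for H2-Eb1, and at ZT12 −0.028 to 0.11 for H2-DMa and −0.16 to 0.36 for Ctss. For the treatment over both times they were −0.0037 to 0.26 for H2-Aa, −0.048 to 0.24 for H2-Ab1 and −0.085 to 0.14 for Cd74, and for time over both treatments −0.090 to 0.15 for H2-Eb1 and −0.11 to 0.096 for H2-DMa. Of 276 log2 differences of single genes in other settings, 256 kept direction and side of the threshold, as did 292 of 360 with 1 library left out. The counts of called genes are not part of these totals. The cause of these changes was not tested. Groups of 3 mice, unknown read totals and the spread of vehicle ZT0 livers limit what these genes can show.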

Other observations

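Stellate and sinusoidal endothelial markers were mostly lower at ZT12 than at ZT0. Of 6 tested stellate markers, 2 were lower at ZT12 in vehicle livers and 6 in treated livers (p under 0.05, limma), with medians of −0.32 and −0.57 on the log2 scale, where 13% and 13.4% of all tested genes were lower. Of 6 tested endothelial markers, 4 were lower with vehicle and 5 with the tested product, with medians of −0.46 and −0.41. For the treatment, 2 endothelial markers were higher at ZT0 and 1 at ZT12, and 1 stellate marker was higher at each time. The summed stellate markers lay between 25.0 and 68.8 FPKM over the 12 livers.

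Of 7 tested hepatocyte markers, 1 was higher and 1 lower with the tested product at ZT0 and 3 were higher at ZT12 (p under 0.05, limma). Of 4 tested entries of blood genes, 1 was higher with the tested product at ZT0 and 0 at ZT12, and their sum ranged from 257 to 796 FPKM over the livers. Of 8 T cell markers 1 passed the minimum, Cd4, which was higher by 0.286 at ZT12 than at ZT0 in treated livers (p under 0.05, limma). Of 3 tested monocyte and neutrophil markers, 0 passed for the treatment at either time (limma), with medians of 0.64 at ZT0 and 0.86 at ZT12, and 1 was lower at ZT12 in vehicle livers. The 1 tested B cell marker was higher at ZT12 in vehicle livers by 0.73. Of 3 tested morning clock genes, 3 were lower at ZT12 in both treatments, with medians of −1.18 and −1.09, and the 7 evening genes had medians of 2.07 and 2.22.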
